A study of Mus musculus with 18 samples.

Results

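Collagen and fibroblast matrix genes were followed in mouse bone-marrow-derived macrophages, phagocytes grown from marrow that are not a usual source of fibrillar collagen. The set was named as Col1a1, Col1a2, Col3a1, Dcn, Thbs4, Sparc, Lum and Fn1, and was chosen because the levels of these genes were seen to vary between single libraries. Each gene was found by matching its Ensembl ID to its symbol in the GENCODE M21 annotation. Of the 8 genes, 7 had a row among the 11164 genes of the table, and Lum, which encodes the collagen-binding proteoglycan lumican, was not analysed here. The 7 genes with a row also passed the filter on low values (1 RPKM or more as the mean of any of the 6 groups). Since the spread between libraries chose the genes, their levels by library are given as a description, without a test.

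The groups were BAFF KO macrophages with LPS (2 libraries) and without (1 library), APRIL KO macrophages with LPS (2) and without (1), and wild-type (WT) macrophages with LPS (2) and without (1). BAFF and APRIL are related TNF-family cytokines that act as survival factors of the B-cell lineage, and LPS is the bacterial lipopolysaccharide sensed by Toll-like receptor signalling. LPS was given at 10 ng/ml for 4 h, and the other macrophages had no stimulation. All groups shared the strain C57BL/6J and a time point labelled as day 16 of gestation and preterm birth. The labels do not say whether libraries came from separate animals or cultures, nor which allele each knockout carries, so the p-values speak to the spread among these libraries alone, which may be technical. Libraries are called here by the numbers in the labels: 17, 18 and 16 for BAFF KO, 20, 21 and 19 for APRIL KO, and 14, 15 and 13 for WT, with the unstimulated library last in each.

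Fibrillar collagens are secreted as procollagen by fibroblasts and osteoblasts, trimmed outside the cell and assembled into fibres. Type I collagen, the main protein of bone, tendon and skin, is a trimer built mostly from a pair of chains of Col1a1 and a chain of Col1a2, while type III collagen is a trimer of Col3a1 chains found in softer tissue such as vessel walls and reticular stroma. Decorin (Dcn) is a small proteoglycan that binds collagen fibrils, osteonectin (Sparc) is a collagen-binding protein abundant in bone, thrombospondin-4 (Thbs4) is a matrix protein prominent in tendon and muscle, and fibronectin (Fn1) is a cell-adhesive glycoprotein that macrophages make as well.

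The genes lie on several chromosomes of the mm10 assembly, so they do not form a single cluster. Col1a1 (ENSMUSG00000001506) is on chromosome 11 from 94936224 to 94953042 on the plus strand, and Sparc (ENSMUSG00000018593) on the same chromosome from 55394500 to 55423183 on the minus strand. Col1a2 (ENSMUSG00000029661) is on chromosome 6 from 4504814 to 4541544, plus strand. Col3a1 (ENSMUSG00000026043) and Fn1 (ENSMUSG00000026193) are on chromosome 1, from 45311538 to 45349706 (plus) and from 71585520 to 71653200 (minus). Dcn (ENSMUSG00000019929) is on chromosome 10 from 97479609 to 97518143, plus strand, and Thbs4 (ENSMUSG00000021702) on chromosome 13 from 92751590 to 92794818, minus strand. All are annotated as protein-coding. Annotated genes without a row overlap Col1a2 (Gm43921) and Col3a1 (Gm47302, a microRNA gene) on the same strand, so reads of shared stretches could not be told apart. An annotated antisense gene, Apol7d, overlaps Fn1. Since the labels name kits with and without strand marking, reads of Fn1 and Apol7d could not be told apart either.

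Sequences upstream of Col3a1 and Thbs4 are shown because these genes ordered the libraries differently, as described below. Each is the 250 bases before the RefSeq start (GRCm38.p6), read 5′ to 3′ on the gene's strand, and neither overlaps an annotated exon. Col3a1 lies downstream of chr1:45311288-45311537 (plus) and Thbs4 of chr13:92794819-92795068 (minus). Capitals mark matches on either strand to the motifs searched.
Col3a1: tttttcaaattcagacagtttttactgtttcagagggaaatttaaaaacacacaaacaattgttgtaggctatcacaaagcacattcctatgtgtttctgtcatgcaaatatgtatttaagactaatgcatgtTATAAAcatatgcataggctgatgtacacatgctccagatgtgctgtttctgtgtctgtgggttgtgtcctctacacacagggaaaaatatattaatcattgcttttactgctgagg
Thbs4: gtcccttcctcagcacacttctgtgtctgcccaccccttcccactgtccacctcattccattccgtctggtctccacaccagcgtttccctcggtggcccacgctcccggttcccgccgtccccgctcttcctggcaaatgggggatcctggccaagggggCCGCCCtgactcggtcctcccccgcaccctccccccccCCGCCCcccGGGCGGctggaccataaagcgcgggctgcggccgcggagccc
The motifs searched were CCAAT (the CCAAT box), TATAAA (the TATA box), TGACTCA (an AP-1 site) and GGGCGG (a GC box). The Col3a1 window held 1 match to the TATA box sequence, starting 117 bases before the RefSeq start. The Thbs4 window held 3 GC box matches, starting 89, 51 and 42 bases before it. Matches did not overlap, and neither window held any of the other motifs. Whether any match is used was not tested. Of 32851 RefSeq windows of the same length, 33.8% held a CCAAT box, 12.4% a TATA box, 4.46% an AP-1 site and 32.7% a GC box.

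Expression was deposited as RPKM, which divides reads by the length of the gene and the column's total. Each library had 2 columns, whose mean is used here as 1 library. The sample titles number these 2 columns as separate samples. They share the library number in their labels and differ in a number after the letter S, called the index number here. The column labels do not say what that number stands for. Recovered reads gave 1649338 to 1942218 reads per column for the lower of a library's index numbers and 3472495 to 4078562 for the higher. Macrophage markers were high in every library, with Lyz2 (lysozyme) between 2820 and 5270 RPKM and Adgre1 (F4/80) between 423 and 567 RPKM. The fibroblast receptor gene Pdgfra had 6 reads in library 14, 20 in library 13 and at most 4 in any other, and Thy1 had 1 to 9 reads per library. Pdgfra had 0 reads in libraries 15, 16, 19 and 20. Of the 26 fibroblast and marrow stromal markers 21 had a row, and their summed level was 116 to 180 RPKM in BAFF KO and 116 to 170 RPKM in APRIL KO libraries with LPS, 165 and 192 RPKM in WT libraries with LPS, and 218 to 240 RPKM in unstimulated libraries. Gsn (gelsolin) alone made up 78.8 to 194 RPKM of these sums. The other 20 markers summed to 30.4 and 98.7 RPKM in BAFF KO with LPS (17 and 18) and 34.1 RPKM in BAFF KO without, to 37.3 and 79 RPKM in APRIL KO with LPS (20 and 21) and 29.2 RPKM without, and to 101 and 75.1 RPKM in WT with LPS (14 and 15) and 58.4 RPKM without. With Gsn left out, libraries 14, 18, 21, 15 and 13 were thus above libraries 17, 20, 16 and 19. This division was also seen in the levels below of the chosen genes other than Thbs4. It was not particular to stromal markers, since the summed smooth muscle and endothelial markers below divided the libraries in the same way. Of these, the smooth muscle genes Acta2 and Tagln showed the division. The endothelial genes Vwf, Pecam1 and Kdr did not. Vwf was highest in libraries 19 and 13 (10.3 and 7.99 RPKM), and Pecam1 was highest in library 19 (6.2 RPKM) and lowest in library 21 (2.69 RPKM). Kdr had 4.55 RPKM in library 13 and 10.1 RPKM in library 17. Gsn did not show the division either, being highest in the unstimulated libraries 13, 16 and 19 (181, 194 and 189 RPKM). Serpinf1, which encodes the secreted protein PEDF, had 136 reads in library 14, 115 in library 13 and 134 in library 21, and 4 to 32 reads in the others. Other stromal markers were ordered differently. Mgp (117 reads) and Serping1 (98 reads) were highest in library 18, Pi16 (46 reads) in library 16 and Igfbp4 (144 reads) in library 13. The part of such cells in the levels below was not tested.

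The type I collagen genes varied widely between libraries, and 1 library stood far above the rest. Col1a1 had 3.52 and 11.3 RPKM in the BAFF KO libraries with LPS (17 and 18) and 4.57 RPKM in the unstimulated BAFF KO library. It had 5.65 and 253 RPKM in the APRIL KO libraries with LPS (20 and 21) and 3.27 RPKM in the unstimulated APRIL KO library, and 69.1 and 8.67 RPKM in the WT libraries with LPS (14 and 15) and 41.4 RPKM in the unstimulated WT library (13). Library 21 was highest, libraries 14 and 13 followed, and the LPS groups overlapped. Col1a2 was at 1.4 and 8.47 RPKM in BAFF KO with LPS and 2.19 RPKM in BAFF KO without. It was at 4.15 and 156 RPKM in APRIL KO with LPS and 1.79 RPKM without, and at 51.8 and 12.6 RPKM in WT with LPS and 31.3 RPKM without. Libraries 21, 14 and 13 led for both chains in that order, and library 21 exceeded library 20 of the same group 44.8-fold for Col1a1 and 37.4-fold for Col1a2. These values rest on 9310 against 211 reads for Col1a1 and 8215 against 216 reads for Col1a2. Of the 7 genes 6 were at least 2-fold higher in library 21 than in library 20 on the log2(RPKM + 1) scale, where 0.805% of all genes were; such counts describe the spread by which the genes were chosen.

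**Figure D1:**
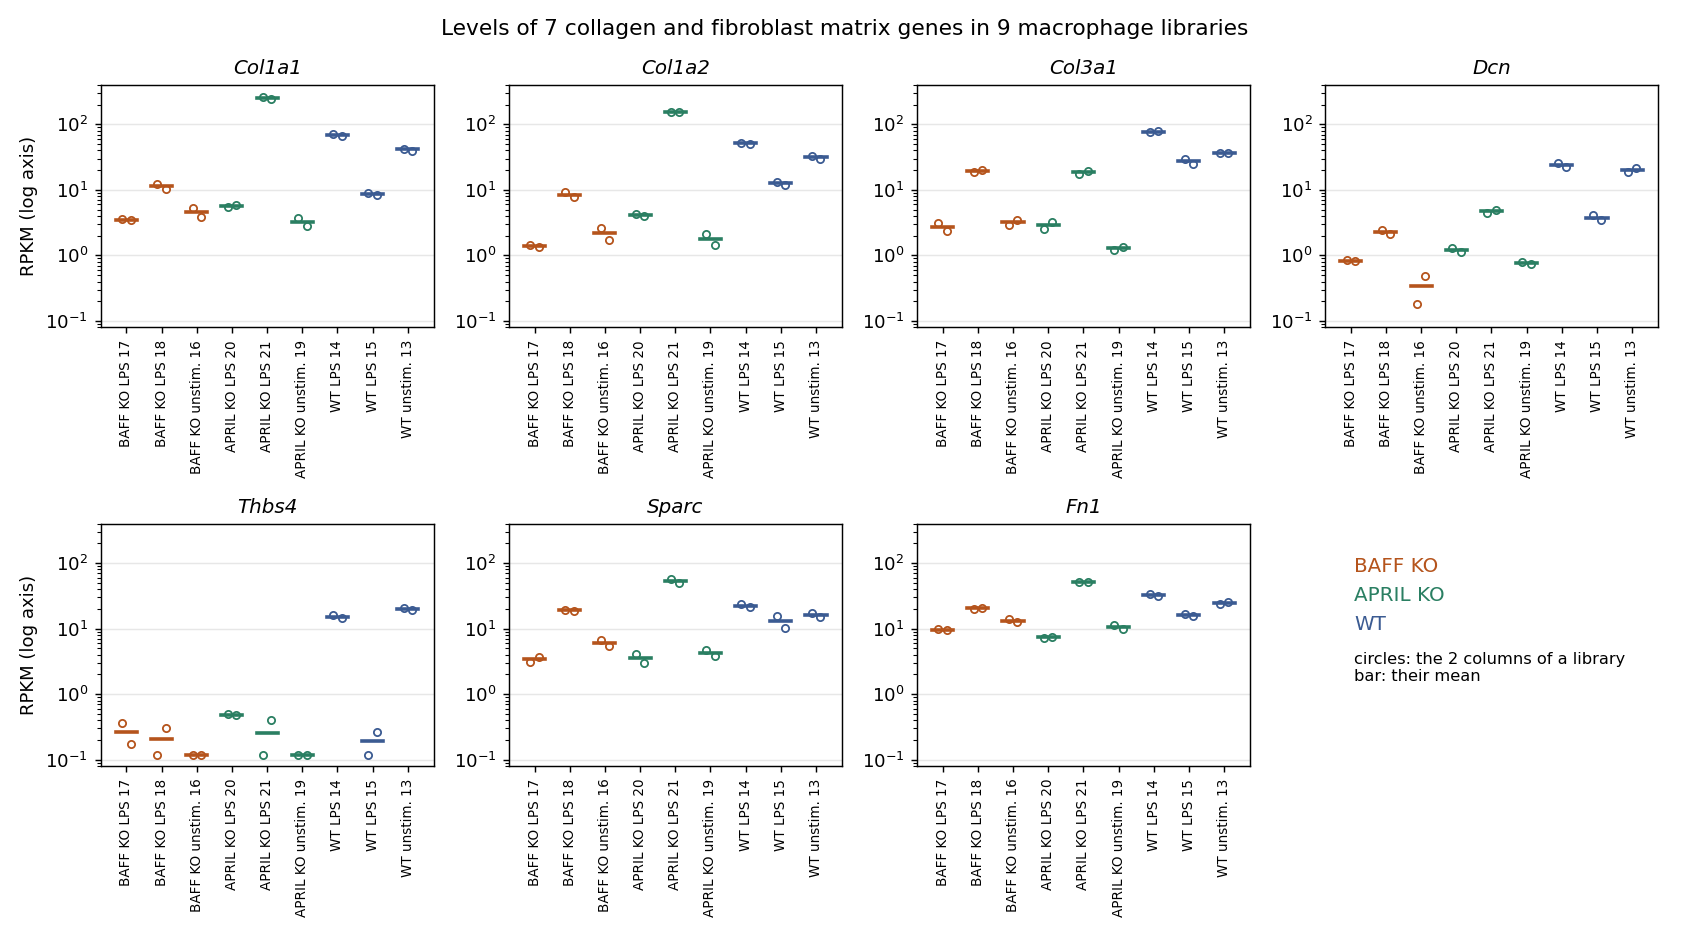
Level of each of the 7 genes in the 9 libraries (RPKM, log axis), with libraries grouped by genotype and LPS. Library 21 (APRIL KO, LPS) is highest for Col1a1, Col1a2, Sparc and Fn1, at 253, 156, 53.5 and 51.6 RPKM, while Col3a1 and Dcn are highest in library 14 (WT, LPS) and Thbs4 in library 13 (WT, unstimulated).

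Col3a1 did not follow the type I chains to their highest library. Its level was 2.73 and 19.4 RPKM in BAFF KO with LPS and 3.2 RPKM in BAFF KO without. It was 2.87 and 18.6 RPKM in APRIL KO with LPS and 1.28 RPKM without, and 77.5 and 27.3 RPKM in WT with LPS and 36 RPKM without. The 3 WT libraries were the highest, followed by libraries 18 and 21, whose counting intervals overlapped. Library 18 exceeded library 17 of the same group 7.13-fold, which ranked 4 among 9934 genes by size of difference between these libraries on the log2(RPKM + 1) scale. Of the 7 genes 5 were at least 2-fold higher in library 18 than in library 17 on that scale, where 0.483% of all genes were.

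Dcn and Thbs4 were high in 2 of the WT libraries and low elsewhere. Dcn had 0.829 and 2.3 RPKM in BAFF KO with LPS and 0.338 RPKM in BAFF KO without. It had 1.22 and 4.73 RPKM in APRIL KO with LPS and 0.767 RPKM without, and 24 and 3.78 RPKM in WT with LPS and 20.1 RPKM without. Libraries 14 and 13 were apart from all others, and library 15, the other WT library with LPS, lay below library 21. Below library 21 the reads were few, from 3 to 37 per library, and neighbouring libraries in the order overlapped in their 95% counting intervals.

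Thbs4 was split most sharply. It had 0.266 and 0.208 RPKM in BAFF KO with LPS (2 and 3 reads) and 0.489 and 0.257 RPKM in APRIL KO with LPS (7 and 4 reads). Both unstimulated knockout libraries had 0 reads. In WT it had 15.3 RPKM in library 14 (258 reads), 0.19 RPKM in library 15 (2 reads) and 19.8 RPKM in library 13 (349 reads). The WT libraries 13 and 14 were therefore high, and the remaining WT library could not be told from the knockouts at this depth. A limit of 3 reads per library puts the unstimulated BAFF KO library at least 122-fold lower and the unstimulated APRIL KO library at least 120-fold lower than library 13. Between libraries 14 and 15, both WT with LPS, the depth-scaled ratio of its reads was 124 (95% interval 34 to 1030), and Thbs4 ranked 1 among 9934 genes by size of difference. Of the 7 genes 5 were at least 2-fold higher in library 14 than in library 15 on the log2(RPKM + 1) scale, where 0.503% of all genes were.

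Sparc and Fn1, which had the smallest ranges, were also highest in library 21. Sparc had 3.45 and 19.1 RPKM in BAFF KO with LPS and 6.08 RPKM in BAFF KO without. It had 3.54 and 53.5 RPKM in APRIL KO with LPS and 4.27 RPKM without, and 22.5 and 13 RPKM in WT with LPS and 16.1 RPKM without. Library 21 was highest, and library 18 lay between the WT libraries 14 and 13. Fn1 had 9.64 and 20.5 RPKM in BAFF KO with LPS and 13.3 RPKM in BAFF KO without. It had 7.37 and 51.6 RPKM in APRIL KO with LPS and 10.6 RPKM without, and 32.8 and 16.2 RPKM in WT with LPS and 24.7 RPKM without. The lowest library still had 347 reads of Fn1, and the highest library exceeded the lowest 7.01-fold, against 15.5-fold for Sparc, 60.6-fold for Col3a1, 77.6-fold for Col1a1 and 111-fold for Col1a2. For Dcn, with 257 reads in library 14 and 3 in library 16, the depth-scaled ratio was 92.8 (95% interval 31.4 to 453).

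Counting intervals separated most neighbouring libraries for the collagens and Fn1. Of the 8 neighbouring pairs of libraries in each gene's order, the 95% Poisson intervals overlapped in 1 pair for Fn1, 2 for Col1a2, 3 each for Col1a1 and Col3a1, 5 for Sparc, 6 for Thbs4 and 7 for Dcn. These intervals cover counting error only. All 7 genes together took 749 to 21625 reads per library, and their summed level was 21.8 RPKM in library 17 and 537 RPKM in library 21. In RNA from a whole culture, fewer cells of a type and less RNA per cell cannot be told apart.

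The libraries differed in the proportions of these genes as well as in their amount. Reads per length of Col1a1 were 2.55 (95% interval 1.87 to 3.51) and 1.33 times those of Col1a2 in BAFF KO with LPS, 1.39 and 1.62 times in APRIL KO with LPS, and 1.33 and 0.688 times in WT with LPS. The lowest ratio, 0.688 (0.595 to 0.795) in library 15, was the only one of 9 below 1. The ratio of Col3a1 to Col1a1 was 0.738 and 1.81 in BAFF KO with LPS, 0.518 and 0.0748 in APRIL KO with LPS, and 1.14 and 3.11 in WT with LPS. Library 21 held by far the least Col3a1 for its Col1a1 (0.0748, 95% interval 0.0689 to 0.081) and library 15 the most (3.11, 2.71 to 3.57). The ratio of Dcn to Col1a2 was likewise lowest in library 21, at 0.03 (0.0226 to 0.0391), against 0.249 in library 20. High libraries were thus not copies of each other at different strength: library 21 was rich in type I collagen, and libraries 14 and 13 carried Dcn and Thbs4 beside their collagens.

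**Figure D2:**
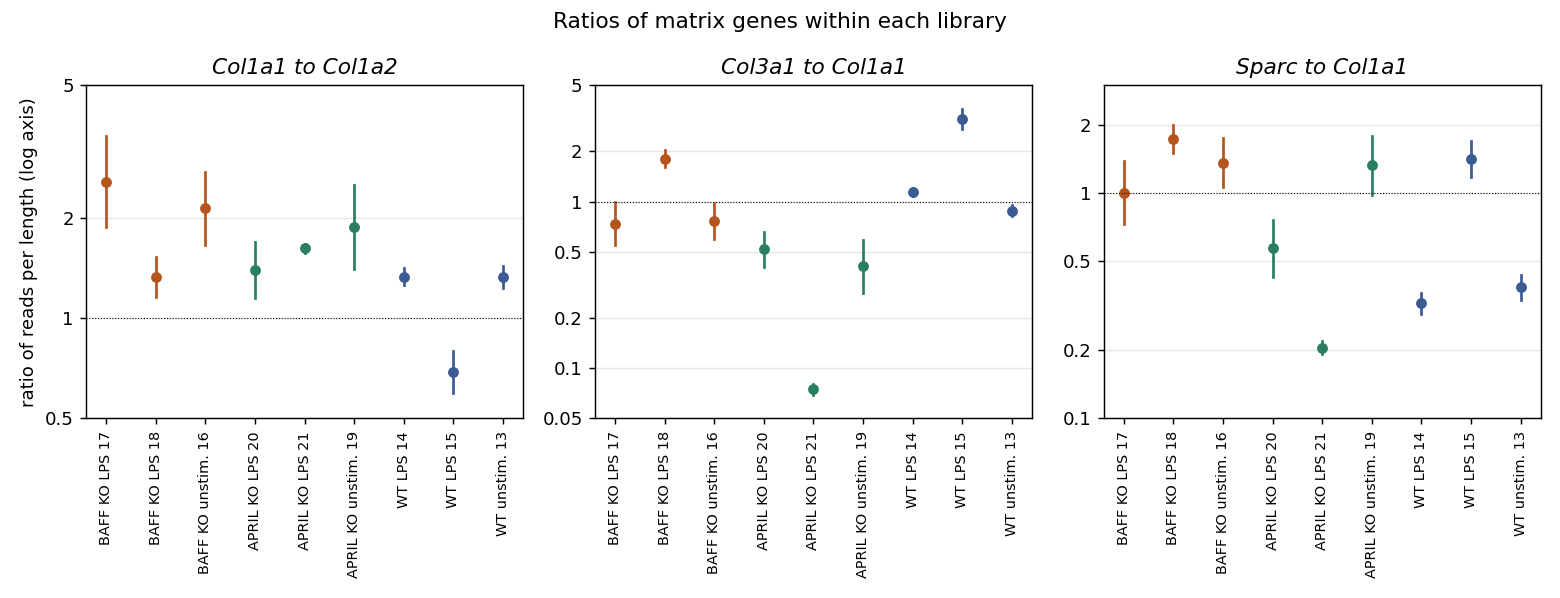
Ratios of reads per length (log axis) of Col1a1 to Col1a2, Col3a1 to Col1a1 and Sparc to Col1a1 in each library, with exact binomial 95% intervals as bars. Library 21 is lowest for Col3a1 to Col1a1 (0.0748) and for Sparc to Col1a1 (0.206), and library 15 is lowest for Col1a1 to Col1a2 (0.688).

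The genes most alike in their pattern were found as those with the smallest root mean square (RMS) difference of log2(RPKM + 1), centred per gene, over the 9 libraries. Col1a1 and Col1a2 were closest to each other, with an RMS difference of 0.385 against an RMS of 1.94 and 1.98 for their own patterns, and both were followed by Col5a1, a fibril-nucleating collagen (0.742 and 0.772), and by Postn, which encodes periostin (0.844 and 0.881). Col3a1 was nearest to Col6a1 (0.574), Col5a3 (0.659) and Col6a2 (0.68), of which the type VI chains form beaded filaments. Sparc was nearest to Col5a2 (0.319), Serpinh1 (0.321), the collagen chaperone, and Col5a1 (0.381), and Fn1 to the gelatinase gene Mmp2 (0.229), to Rcn3 (0.28) and to Fkbp10 (0.31), both residents of the secretory pathway. For Dcn they were Fbln2, which encodes fibulin-2 (0.565), Atp2a1, the calcium pump of fast muscle (0.596), and Il1rl1, the IL-33 receptor (0.612). Thbs4 was nearest to Il1rl1 (0.677), to Dcn (0.726) and to Fbln2 (0.932). Il1rl1 was at 9.84 RPKM in library 14 and 7.01 RPKM in library 13, and at 0.276 to 1.72 RPKM in the other 7 libraries.

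Markers of other tissues moved with some of these libraries, and their part in the levels was not tested. Of 13 bone and cartilage markers 3 had a row. Ibsp, the bone sialoprotein gene of osteoblasts, had 478 reads (41.4 RPKM) in library 21, 2 reads in library 18 and 0 reads in the other 7. Alpl, the alkaline phosphatase gene, had 64 reads in library 21 and at most 3 elsewhere, and Col11a1, a collagen of cartilage, had 45 reads in library 21 and 0 in the other 8. Library 21 was thus also the library with the most reads of these genes. Runx2, the remaining bone marker with a row, was not raised there, at 0.242 RPKM against 0.238 to 0.748 RPKM in the others.

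Skeletal muscle markers were high in the WT libraries. Of 30 such genes 26 had a row, and their summed level was 74.7 and 99.6 RPKM in BAFF KO with LPS and 70.8 RPKM in BAFF KO without, 52.8 and 114 RPKM in APRIL KO with LPS and 82.3 RPKM without, and 519 and 374 RPKM in WT with LPS and 376 RPKM without. Beside these sums, Thbs4 had 258 and 2 reads in WT with LPS (14 and 15), 349 reads in WT without, and 0 to 7 reads in the knockout libraries. A link between the muscle markers and Thbs4 was not tested. Smooth muscle and endothelial markers (9 of 12 with a row) summed to 73.9 RPKM in library 18, 68.5 RPKM in library 14 and 63.6 RPKM in library 21. They summed to 60.2 RPKM in library 15 and 54.3 RPKM in library 13, and to 29.5 to 34.2 RPKM in libraries 17, 20, 16 and 19. The smooth muscle genes Acta2 and Tagln followed these sums, and the endothelial genes Vwf, Pecam1 and Kdr did not. None of the 7 tendon markers had a row, so tendon was not assessed. Macrophage markers (14 of 16 with a row) summed to 5310 to 5820 RPKM with LPS and 7530 to 8260 RPKM without.

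**Figure D3:**
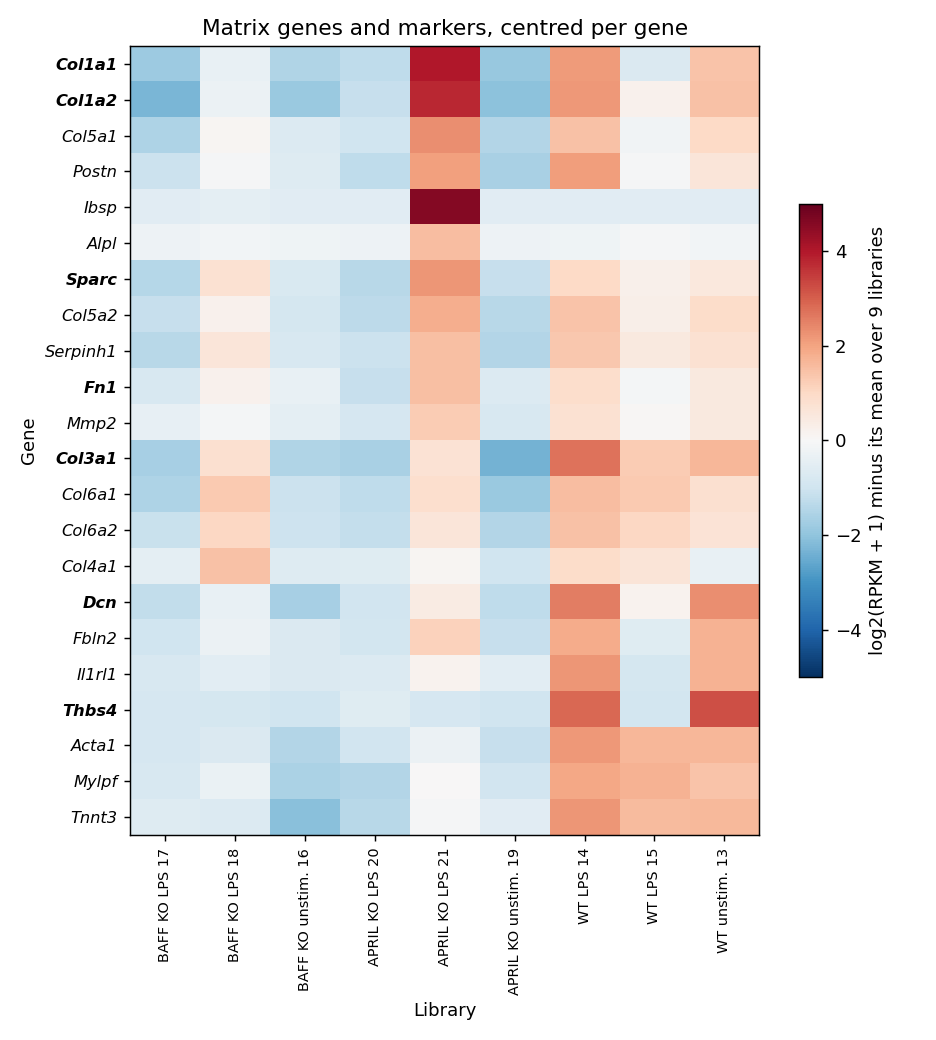
Matrix genes (the 7 chosen genes in bold), genes most alike and markers of bone and muscle in each library, as log2(RPKM + 1) minus the gene's mean over 9 libraries (red higher, blue lower). Col1a1, Col1a2, Ibsp and Alpl are highest in library 21 (APRIL KO, LPS), Dcn, Il1rl1 and Thbs4 are high in libraries 14 and 13, and the muscle genes Acta1, Mylpf and Tnnt3 are high in all 3 WT libraries.

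Whether LPS changed matrix gene expression was asked by averaging the response over the 3 genotypes with limma on log2(RPKM + 1), at a Benjamini-Hochberg adjusted p below 0.05. None of the 7 genes was called (0 also at an unadjusted p below 0.05), where 80.2% of 9934 genes were, 18.1% higher and 62.1% lower. The balance of directions over all genes depended on the scaling: 1802 genes were called higher and 6166 lower with RPKM as deposited, 3084 and 2990 with median ratio scaling, and 2418 and 4157 with quantile normalization. Over all libraries Col1a1 averaged 58.6 ± 98.6 RPKM with LPS (SD, n = 6) and 16.4 ± 21.6 RPKM without (SD, n = 3). The fitted difference of Col1a1 was 1.00 (95% interval -1.58 to 3.57, limma adjusted p = 0.429), and that of Col3a1 was 1.11 (-0.44 to 2.67, limma adjusted p = 0.158). Thbs4 had the only negative fitted difference, -0.60 (-2.20 to 1.00, limma adjusted p = 0.442), with 2.79 ± 6.13 RPKM with LPS and 6.68 ± 11.4 RPKM without. The intervals of all 7 genes included 0, and they were widest for Col1a1 (above) and Col1a2 (-1.15 to 3.59). The genes were chosen for their spread between single libraries, which is also the spread that this test and those between genotypes measure against, so the lack of calls follows in part from the choice and does not show that the groups were alike. The median difference of the 7 genes was 0.70, beside -0.44 for all genes.

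The averaged LPS result rested on single libraries. Library 20 was the APRIL KO library with LPS that was low in these genes. Without it, the fitted differences were 1.87 for Col1a1, 2.04 for Col1a2, 1.5 for Col3a1 and 1.29 for Sparc. Without library 14, that of Thbs4 was -1.23. Leaving out an LPS library takes out the spread between it and the other library of its group. The genes were chosen by such spread, so no call is drawn from these fits. An arm with a lone library is then assumed to vary like the other groups.

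The LPS difference within a genotype had the same sign in all 3 genotypes for Col3a1 and Sparc and a negative sign in WT alone for the other 5 genes, and each rests on 1 unstimulated library. For Col3a1 the difference was 1.05 in BAFF KO, 1.93 in APRIL KO and 0.35 in WT, and for Sparc it was 0.42, 1.58 and 0.09 in the same order. On the same log2(RPKM + 1) scale, the difference of Col1a1 was 0.42 in BAFF KO, 3.27 in APRIL KO and -0.70 in WT, and for Col1a2 it was 0.58, 3.35 and -0.27 in the same order. For Dcn it was 0.88 in BAFF KO, 1.01 in APRIL KO and -0.95 in WT, and for Thbs4 0.15, 0.29 and -2.24. The difference between responses was tested directly. None of the 7 genes passed for the LPS response of BAFF KO minus that of WT, where 0.443% of all genes did, nor for that of APRIL KO minus that of WT, where 0% did, and none had an unadjusted p below 0.05. The widest estimate, for Col1a1 in APRIL KO minus WT, was 3.97 with an interval of -2.35 to 10.3 (limma adjusted p = 0.998).

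Under LPS, BAFF KO libraries had lower levels of several of these genes than WT libraries, but no difference passed the adjusted threshold. Both BAFF KO libraries lay below both WT libraries for Col1a2, Col3a1 and Dcn, and the groups overlapped for the other 4 genes; 25.5% of all genes lay below in the same way. Col3a1 was at 2.73 and 19.4 RPKM against 77.5 and 27.3 RPKM, a fitted difference of -2.43 (95% interval -4.63 to -0.23, unadjusted p = 0.0343, limma adjusted p = 0.16). Dcn differed by -2.15 (-3.89 to -0.42, unadjusted p = 0.0213, limma adjusted p = 0.124). These were the 2 genes with an unadjusted p below 0.05, and 0 of 7 were called, beside 8.34% of all genes. The median over the 7 genes was -1.83, beside 0.02 for all genes. Without library 15 the differences were -3.34 for Dcn and -3.72 for Thbs4, and without library 14 that of Thbs4 was 0.055. Either fit leaves WT with a lone library and takes out the spread between libraries 14 and 15, by which the genes were chosen. No call is therefore drawn from these fits. In the same comparison 18 of 22 tested muscle markers were lower in BAFF KO, and their part in the differences was not tested.

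No difference between APRIL KO and WT libraries under LPS passed either. The type I chains had estimates made of a very high and a low APRIL KO library. That of Col1a2 was 0.08, with an interval of -3.27 to 3.44. Col1a1 was at 5.65 and 253 RPKM against 69.1 and 8.67 RPKM in WT (0.66, interval -2.99 to 4.31, limma adjusted p = 0.88). Col3a1 was the single gene with both APRIL KO libraries below both WT libraries, at 2.87 and 18.6 RPKM against 77.5 and 27.3 RPKM (-2.44, interval -4.64 to -0.24, unadjusted p = 0.034, limma adjusted p = 0.291), and 22.6% of all genes lay below in that way. The count called was 0 of 7, beside 0.211% of all genes, and Col3a1 was the 1 gene with an unadjusted p below 0.05. Without library 21 Col1a1 had a difference of -1.97, and without library 20 of 3.29. Thbs4 passed without library 15 (-3.58, limma adjusted p = 0.00483). Of the muscle markers 9 of 22 tested were lower in APRIL KO.

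None of the 7 genes had both BAFF KO libraries below both APRIL KO libraries under LPS, where 22.9% of all genes did. None had both above either, and the share of all genes that did is not given here. Of the 7 genes 0 were called, beside 5.54% of all genes (0 at an unadjusted p below 0.05). The largest fitted differences were those of Col1a2, -2.57 (interval -5.93 to 0.78, limma adjusted p = 0.395), and Col1a1, -2.47 (-6.11 to 1.18, limma adjusted p = 0.459), both with library 21 on the APRIL KO side. Without that library the difference of Col1a1 was 0.16. Col3a1 differed by 0.00 with an interval of -2.20 to 2.20.

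**Figure D4:**
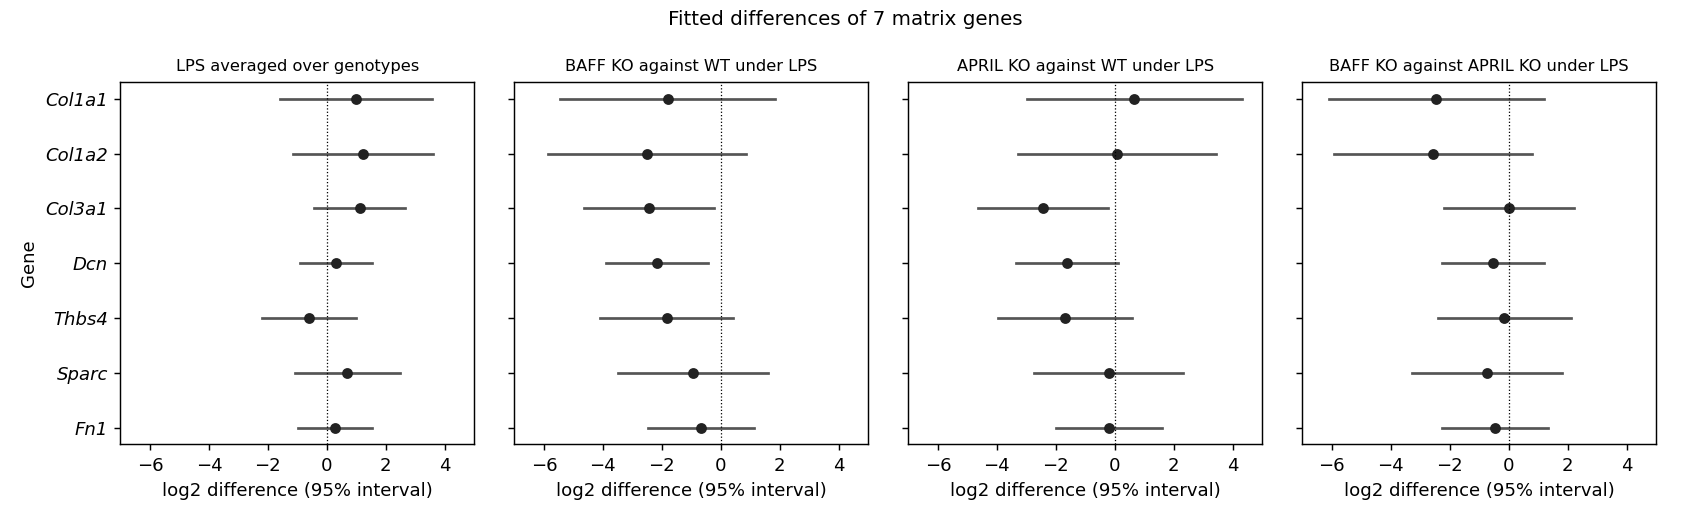
Fitted log2 differences of the 7 genes in 4 comparisons (points) with 95% intervals (bars) and a dotted line at 0. Every interval includes 0 except Dcn in BAFF KO against WT and Col3a1 in both knockouts against WT, and no adjusted p is below 0.05.

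Without stimulation, each group had 1 library and no test was made. Of the 7 genes 6, all but Fn1, were at least 2-fold lower in library 16 (BAFF KO) than in library 13 (WT) on the log2(RPKM + 1) scale, where 1.34% of all genes were. All 7 were so in library 19 (APRIL KO), where 1.16% of all genes were. Thbs4, Dcn, Col1a2, Col3a1 and Col1a1 ranked 1, 2, 7, 9 and 14 among 9934 genes by size of difference between libraries 16 and 13, and Thbs4, Col3a1, Dcn, Col1a2 and Col1a1 ranked 2, 3, 5, 6 and 7 between libraries 19 and 13. Both comparisons use library 13, which was among the high libraries for these genes.

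Among other genes of the matrix, some collagens and matricellular genes rose with LPS, and the counts below are to be read beside the 18.1% of all genes called higher and 62.1% called lower. Among 14 tested collagens 5 rose with LPS and 0 fell, with a median of 0.74, near the 0.70 of the 7 chosen genes. Col27a1, a fibrillar collagen of cartilage, rose by 2.02 (limma adjusted p = 6.79e-06), Col4a1 and Col4a2, the main basement membrane chains, by 1.01 (0.0409) and 0.83 (0.0488), Col11a2 by 0.94 (0.000449) and Col18a1, the source of endostatin, by 0.64 (0.00087). The call of Col4a1 was lost without any 1 of libraries 13, 14, 15, 16, 19 and 21, and that of Col4a2 without any 1 of these or of library 20 (adjusted p up to 0.108 and 0.134), and both were lost with the replicate block. Of 7 matricellular genes 2 rose and 0 fell: Tnc, which encodes tenascin-C, by 1.90 (limma adjusted p = 0.00198) and Thbs1, the thrombospondin of platelets and macrophages, by 0.70 (0.00221). Median ratio scaling put the median of all genes at -0.02 in place of -0.44, and gave 6 rises and 0 falls among collagens and 3 and 0 among matricellular genes.

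Enzymes and chaperones of collagen maturation moved both ways with LPS. Of 19 tested, 3 rose and 6 fell, and with median ratio scaling 7 rose and 3 fell, so the balance of directions depended on the scaling. Bmp1, the procollagen proteinase, rose by 1.37 (limma adjusted p = 0.00122), Plod3, a lysyl hydroxylase, by 0.87 (3.29e-05) and P4ha1, a prolyl hydroxylase subunit, by 0.87 (1.13e-05). Plod1, another lysyl hydroxylase, fell by 0.97 (limma adjusted p = 9.64e-06) and Colgalt1, which adds galactose to collagen, by 0.93 (4.87e-05). Crtap, a partner of prolyl 3-hydroxylase, fell by 0.75 (limma adjusted p = 0.000399) but did not pass with median ratio scaling (-0.26, adjusted p = 0.0688).

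Among 11 tested proteoglycans and other matrix genes, 1 rose and 2 fell with LPS, and 3 rose and 1 fell with median ratio scaling. Vcan, which encodes the large proteoglycan versican, rose by 1.79 (limma adjusted p = 7.32e-06). Tgfbi, a TGF-beta-induced adhesion protein, fell by 1.01 (limma adjusted p = 2.24e-05) and Emilin1, an elastic fibre protein, by 0.77 (0.00255), which did not pass with median ratio scaling (-0.38, adjusted p = 0.0813). Of 15 tested receptors for matrix, 9 rose and 4 fell, a share called close to the 80.2% of all genes, and 10 rose and 3 fell with median ratio scaling. Sdc4, a syndecan that binds fibronectin, rose by 3.82 (limma adjusted p = 1.35e-09), Itga4, an integrin chain for fibronectin, by 1.71 (1.05e-06) and Cd44, the hyaluronan receptor, by 1.28 (1.63e-06). Itgb5, an integrin chain for vitronectin, fell by 1.61 (limma adjusted p = 4.65e-07), Stab1, a scavenger receptor that takes up Sparc, by 1.49 (6.84e-06) and Lair1, an inhibitory collagen receptor, by 1.22 (1.43e-05).

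Between genotypes under LPS, calls are to be read beside the shares of all genes called. These were 8.34% in BAFF KO against WT, 0.211% in APRIL KO against WT and 5.54% in BAFF KO against APRIL KO. In BAFF KO against WT, no collagen of 14 and no maturation gene of 19 was called, Tgfbi fell by 1.03 (limma adjusted p = 0.00389) and Spp1, the osteopontin gene that macrophages express strongly, rose by 0.93 (limma adjusted p = 0.0297). Among 15 tested receptors 3 rose and 1 fell. Itga4 rose by 1.19 (limma adjusted p = 0.00184), Lair1 by 0.73 (0.0182) and Cd36, a thrombospondin receptor, by 0.40 (0.0419), and Sdc4 fell by 1.10 (0.000528). Spp1 did not pass without any 1 of libraries 14, 17 and 18 (adjusted p up to 0.182), and Lair1 and Cd36 did not without any 1 of the 4 libraries compared (up to 0.12 and 0.179). In APRIL KO against WT none of the genes in these lists was called. In BAFF KO against APRIL KO, 3 receptors rose and 2 fell, of which Sdc4, lower by 1.15 (limma adjusted p = 0.000398), passed without any 1 library, and Itga4, Lair1, Cd36 and Cd44 each lost the call without a library compared. Tgfbi fell by 0.87 (limma adjusted p = 0.00879) but did not pass without library 17 or library 21 (adjusted p up to 0.0789).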

How the data were processed

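RNA of 9 libraries was sequenced as single reads of 85 bp on a NextSeq 550, per the labels' protocols. The submitters' processing notes name the aligner STAR and the mm10 assembly; for the counter and annotation, nothing is given in the sources used here. As deposited by the authors, the table held RPKM for 11164 genes in 18 columns. Whole reads were recovered from these values: 100% came out whole within 0.01 reads, 1 read having been added to each count and a count of 0 set to a fixed floor. Symbols came from GENCODE M21 for 11084 IDs.

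The 2 columns of a library were averaged. Kept were 9934 genes whose mean reached 1 RPKM in any of 6 groups. The log2(RPKM + 1) values went into limma 3.58.1 under R 4.3.3 (6 group means, 3 residual degrees of freedom, eBayes with trend, 2-sided), with adjustment over all kept genes; fold changes on this scale understate those of low genes. The script was tested on simulated data. The genes and lists were chosen with earlier results of these data known. Named were the 7 genes, the 3 genes most alike to each and, in each list, up to 3 called rises and falls; other genes were named after their values were seen. Alternatives were another pseudocount, no filter, other scalings, single columns, columns as samples, a replicate block and leaving out each library. The replicate block set the higher-numbered library of each LPS group apart from all other libraries. Its averaged LPS estimate therefore compares libraries 14, 17 and 20 with libraries 13, 16 and 19.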

Additional observations from a re-analysis of the deposited data

Results flagged for a closer look

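Itga4, an integrin chain that binds fibronectin and VCAM1, had a larger LPS response in BAFF KO than in WT macrophages. The difference between the responses was 1.46 on the log2(RPKM + 1) scale (limma adjusted p = 0.0352), and none of the 7 matrix genes passed that test. It did not pass without a filter on low values (adjusted p = 0.0698), with the lower index columns alone (0.189), with the replicate block (0.0902), or without any 1 of the 6 LPS libraries (0.0724 to 0.151).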

How the results depend on the processing

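None of the 7 genes was called in any comparison with limma under another pseudocount, no filter, median ratio scaling, quantile normalization, or the lower or higher index columns alone. With the 18 columns as separate samples, which counts each library more than once, 1 gene was called for LPS (Col3a1, adjusted p = 0.0321), 3 for BAFF KO against WT and 2 for APRIL KO against WT. That setting called 2706 genes in all for BAFF KO against WT, where 828 were called with library means, 1361 for APRIL KO against WT (21), 1824 for BAFF KO against APRIL KO (550), 2193 for the LPS response of BAFF KO minus that of WT (44) and 8 for that of APRIL KO (0). The lower index columns alone called 227, 0, 164, 2 and 1 in the same order. Without a filter these counts were 617, 5, 399, 15 and 0, and leaving out single libraries gave 215 to 845, 1 to 28, 99 to 559, 0 to 46 and 0 to 1. Replicate numbers here follow the order of library numbers within a group. Deviations of same-numbered LPS libraries correlated at -0.18 between WT and BAFF KO, -0.10 between WT and APRIL KO and 0.12 between the knockouts. With 2 libraries per LPS group, this cannot decide whether the samples were paired. With the replicate block 0 of the 7 genes were called, and counts of all genes were 7452 for LPS (7968), 564, 19, 411, 15 and 0. The blocked LPS estimate compares libraries 14, 17 and 20 with libraries 13, 16 and 19, leaving out libraries 15, 18 and 21. Computed so, it turned for Thbs4 (0.082), Sparc (-0.14) and Fn1 (-0.17).

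Leaving out 1 library at a time gave 0 to 4 called genes for LPS, 0 to 2 for BAFF KO against WT, 0 to 1 for APRIL KO against WT and 0 to 1 for both differences of LPS responses, where Thbs4 passed without library 14 (4.28, adjusted p = 0.0168, and 4.42, 0.027). Estimates that turned were, for LPS, Col1a1 (-0.14 to 1.87), Dcn (-0.0838 to 0.95), Thbs4 (-1.23 to 0.22) and Fn1 (-0.16 to 0.72). For BAFF KO against WT they were Thbs4 (-3.72 to 0.055) and Sparc (-2.03 to 0.14), and for APRIL KO against WT Col1a1 (-1.97 to 3.29), Col1a2 (-2.38 to 2.55), Thbs4 (-3.58 to 0.20), Sparc (-2.00 to 1.59) and Fn1 (-1.53 to 1.13). For BAFF KO against APRIL KO they were Col1a1 (-5.09 to 0.16), Col3a1 (-1.22 to 1.23), Dcn (-1.22 to 0.15), Sparc (-2.53 to 1.06) and Fn1 (-1.80 to 0.86). For the LPS response of BAFF KO minus that of WT they were Col1a1 (-0.31 to 2.55), Col1a2 (-0.14 to 1.84), Col3a1 (-0.52 to 1.93), Sparc (-0.76 to 1.41) and Fn1 (-0.34 to 0.68), and for that of APRIL KO Sparc (-0.30 to 3.28) and Fn1 (-0.38 to 2.28). Median ratio scaling turned the LPS differences of Ppib (0.21) and Cd36 (0.0925). The difference of Col3a1 between the knockouts, near 0, turned with a pseudocount of 0.1 (-0.00271), median ratio scaling (-0.0102) and the higher index columns (-0.14), and that of Fn1 for the LPS response of BAFF KO minus that of WT with the lower index columns (-0.00473). The cause was not tested.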
